A study of Homo sapiens with 23 samples.

Results

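The region described here is the stretch of chromosome band 9p21 around the cell-cycle inhibitor genes CDKN2A and CDKN2B and their neighbour MTAP, a locus that is known to be deleted in K562 cells. Its members are all peaks, in any of the 21 deposited peak lists, that overlap chr9:20000000-25000000 of genome build hg19. There were 897 such peaks among the 1741457 peaks of all lists, 209 of them in the 14 K562 lists and 688 in the 7 HCT116 lists. Within the window, MTAP was marked at chr9:21802635-21865969, CDKN2A at chr9:21967751-21994490 and CDKN2B at chr9:22002902-22009312, and the gene span below is the 206.678 kb from the start of MTAP to the end of CDKN2B.

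K562 is a chronic myelogenous leukaemia line and HCT116 a colon carcinoma line, both grown in DMEM with serum. The K562 lists come from wild-type cells. Of these, 3 hold nascent strands (NS), the short new DNA made at replication origins and purified with lambda exonuclease, from early, middle and late S phase. Another 6 K562 lists come from ChIP with an antibody against the deacetylase SIRT1 phosphorylated at T530 (pSIRT1), in unfractionated cells and in elutriation fractions of G1, of S (early, middle and late) and of G2. The last 5 K562 lists come from ChIP against the helicase subunit MCM2 phosphorylated at S139 (pMCM2) in the same 5 fractions. The HCT116 lists hold nascent strands of 4 cultures and ChIP of 3 antibodies. The nascent strands came from wild-type cells kept for 24 h in 200 nM aphidicolin, which inhibits replicative DNA polymerases, and then for 24 h without it, from 1 SIRT1-depleted clone, from 1 depleted clone rescued with T530A mutant SIRT1 and from 1 depleted clone rescued with wild-type SIRT1. The HCT116 ChIP used unsynchronised, untreated wild-type cells and antibodies against pSIRT1, pMCM2 and histone H4 acetylated at lysine 16 (H4K16ac). The sheared-DNA controls of both lines were not analysed here, so DNA copy number was not measured.

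Every list stands for 1 library, lists of 1 cell line are not replicates, and no test was made. In 18 lists each peak has a whole number, taken here as its reads, and 3 lists have a peak score in its place, namely K562 pSIRT1 of middle S and of G2, whose scale is not given in the sources used here, and HCT116 H4K16ac. Library depth is unknown, so that a value can be set only against others of its own list. Reads are totals per peak, not scaled for its width, so that wider peaks can hold more. Lists held 24359 to 120213 peaks in K562 and 74479 to 230760 peaks in HCT116.

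CDKN2A makes p16INK4a, which blocks the cyclin D kinases CDK4 and CDK6 and so holds the RB protein active, and from another first exon p14ARF, which binds MDM2 and protects p53. CDKN2B makes p15INK4b, a kinase inhibitor of the same family that TGF-beta signalling induces. MTAP makes the enzyme that salvages methylthioadenosine, a by-product of polyamine synthesis. Loss of both copies of CDKN2A is frequent in human tumours and leukaemias, and MTAP and CDKN2B are often lost with it. A peak called in such a segment cannot mark binding or initiation on DNA that the cells lack, which makes the segment a check of background calls.

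The promoters of the genes are shown as the regulatory sequences of the locus. They are RefSeq sequences of build GRCh38.p14 for all 3 genes, from 250 bases before to 50 bases after each transcription start, 5′ to 3′ on the gene's strand, with CG dinucleotides in capitals. Their coordinates belong to GRCh38.p14 and cannot be set against the hg19 coordinates of the peaks, whose distances below are to the marked 5′ ends in hg19.
MTAP promoter, plus strand, GRCh38.p14 chr9:21802386-21802685: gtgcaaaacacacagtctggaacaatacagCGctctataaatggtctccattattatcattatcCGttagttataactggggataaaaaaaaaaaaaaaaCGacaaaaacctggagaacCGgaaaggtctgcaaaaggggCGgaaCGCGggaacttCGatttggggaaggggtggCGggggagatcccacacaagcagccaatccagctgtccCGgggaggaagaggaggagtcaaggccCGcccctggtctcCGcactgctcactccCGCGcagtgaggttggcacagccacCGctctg
CDKN2A promoter upstream of the p14ARF first exon, minus strand, GRCh38.p14 chr9:21995275-21995574: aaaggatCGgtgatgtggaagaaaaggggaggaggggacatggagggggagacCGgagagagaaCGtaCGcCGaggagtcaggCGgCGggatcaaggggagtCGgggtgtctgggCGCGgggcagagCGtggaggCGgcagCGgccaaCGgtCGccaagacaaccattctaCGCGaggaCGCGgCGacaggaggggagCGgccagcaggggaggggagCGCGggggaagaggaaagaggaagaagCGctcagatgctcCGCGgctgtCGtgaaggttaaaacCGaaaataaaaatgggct
CDKN2A promoter upstream of the p16INK4a first exon, minus strand, GRCh38.p14 chr9:21974808-21975107: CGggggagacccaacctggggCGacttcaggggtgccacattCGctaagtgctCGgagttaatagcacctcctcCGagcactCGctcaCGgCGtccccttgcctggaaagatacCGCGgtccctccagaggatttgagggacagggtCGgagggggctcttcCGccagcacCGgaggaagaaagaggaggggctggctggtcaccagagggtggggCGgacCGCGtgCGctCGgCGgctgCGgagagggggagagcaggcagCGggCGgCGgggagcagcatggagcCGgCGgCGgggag
CDKN2B promoter, minus strand, GRCh38.p14 chr9:22009256-22009555: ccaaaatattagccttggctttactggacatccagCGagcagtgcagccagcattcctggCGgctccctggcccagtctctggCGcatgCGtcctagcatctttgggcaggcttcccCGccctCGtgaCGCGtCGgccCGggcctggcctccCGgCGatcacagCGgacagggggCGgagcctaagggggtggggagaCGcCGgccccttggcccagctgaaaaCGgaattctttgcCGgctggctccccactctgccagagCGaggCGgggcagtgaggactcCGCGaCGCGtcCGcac
The motif searched was CG, which reads the same on both strands and cannot overlap itself. The MTAP promoter held 15 of them, the promoter upstream of p14ARF 28, that of p16INK4a 26 and that of CDKN2B 25. At least 1 CG was present in 96.0% of the 35116 RefSeq promoters of the same length, and their median number was 14. As many CG as in these 4 promoters were held by 48.9%, 26.2%, 30.1% and 32.0% of all promoters, in the same order.

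Nascent strands of K562 were missing from most of the region. In the 5 Mb window the K562 nascent-strand lists had 3 peaks in the early, 2 in the middle and 8 in the late S fraction, against 96 after aphidicolin, 91 in SIRT1-depleted cells, 86 in T530A rescued cells and 72 in wild-type rescued cells of HCT116. All of these K562 peaks lay left of chr9:20690201, on the telomere side of the genes. From there the 3 K562 lists together were empty over 4.62 Mb, chr9:20690201-25309600, which took in MTAP, CDKN2A and CDKN2B and ran 309.6 kb past the window. In the same interval HCT116 had 77 nascent-strand peaks after aphidicolin, 78 in SIRT1-depleted cells, 69 in T530A rescued cells and 62 in wild-type rescued cells. The longest empty stretches of the HCT116 nascent-strand lists in the window were 419.4, 498.2, 282.0 and 503.6 kb in the same order of cultures. How many other windows differ as much between the lines was not counted. The lack of K562 nascent-strand peaks in the interval follows from the way the interval was set.

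**Figure D1:**
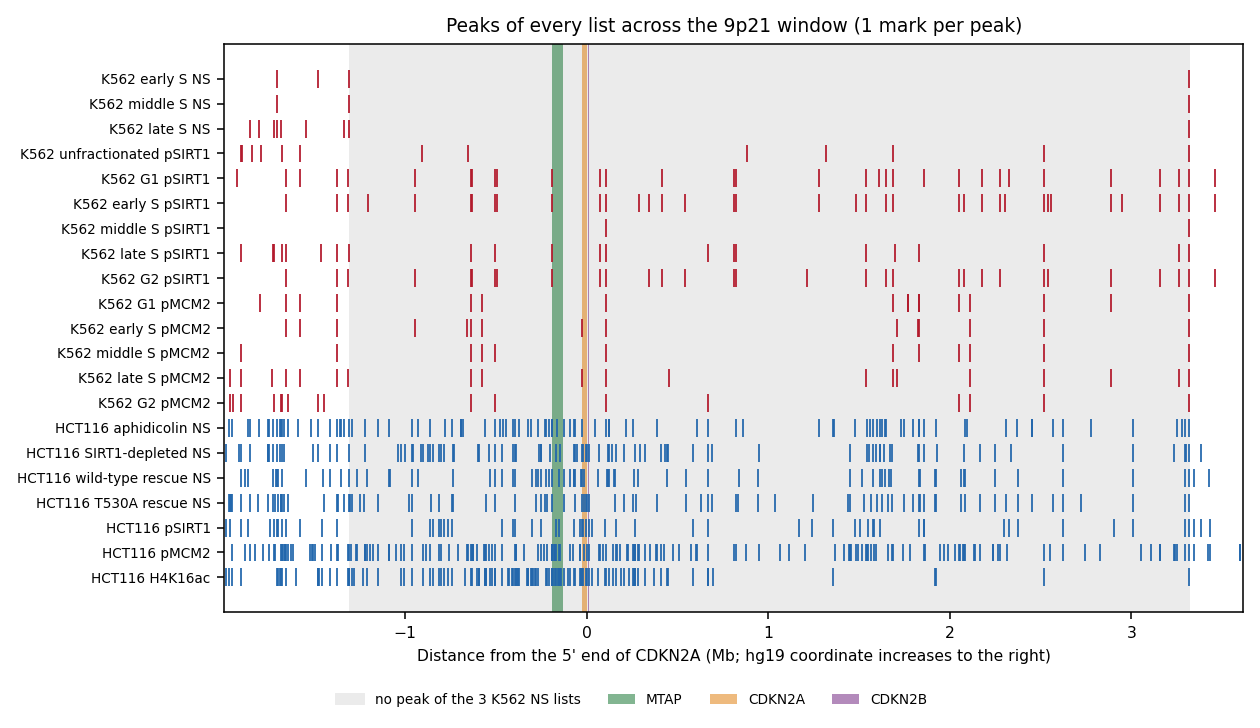
Peaks of each list across the window, with the distance from the 5′ end of CDKN2A in Mb on the horizontal axis and 1 row per list, K562 above HCT116. Each tick is 1 peak, the shaded interval is the stretch empty of K562 nascent strands and the coloured bands are MTAP, CDKN2A and CDKN2B. The 3 K562 nascent-strand rows are empty in the shaded interval, the 7 HCT116 rows have 46 to 146 peaks in it, and the K562 ChIP rows hold 1 to 32.

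The edges of the gap were nearly the same in the 3 K562 nascent-strand lists. On the left the last peaks were chr9:20687001-20689400 in early S with 66 reads, chr9:20688201-20689800 in middle S with 68 reads and chr9:20687801-20690200 in late S with 88 reads. Their ends were within 800 bp of each other, 1112 kb before the start of MTAP. Peak bounds lie on a 200 bp grid in these lists. HCT116 had an overlapping peak in all 4 nascent-strand lists and in the pMCM2 and H4K16ac lists. The left edge is the last site called before the gap, and it locates no breakpoint.

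The right edge was of another kind. It was set by 1 narrow peak at chr9:25309801-25310000, which began at 25309601 in middle S, 3300 kb after the end of CDKN2B. This peak carried 144 reads in the early, 321 in the middle and 172 in the late S list. A peak of at most 400 bp stood at this place in 19 of the 21 lists, in 14 of 14 K562 lists and in 5 of 7 HCT116 lists. In the other 2, the HCT116 nascent strands of T530A and wild-type rescued cells, a peak of 1400 bp ended at the same base, so that all 21 lists had a peak there. With peaks of 400 bp or less left out, the next K562 nascent-strand peak came at 27806001 in early S, 27260001 in middle S and 31816201 in late S. The gap was then 7.12, 6.57 and 11.1 Mb long in the 3 lists and 6.57 Mb in all of them together. Under the same limit, which was chosen after the data were seen, the gaps of the 4 HCT116 nascent-strand lists were 0.299 to 0.504 Mb. The left edge thus moved by no base, while the right edge depended on 1 narrow call.

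The flanks of the gap were sparse in K562 as well. In the part of the window left of the gap, the nascent-strand peaks per Mb were 0.126 to 0.417 of each list's genome-wide level in K562, and 0.661 to 1.01 of it in HCT116. In the 5 Mb before the window the same ratios were 0.217 to 0.287 in K562 and 0.805 to 0.92 in HCT116. In the 5 Mb after the gap K562 had 2, 2 and 1 peaks in early, middle and late S, a ratio of 0.0072 to 0.0174, while HCT116 had 49 to 88 peaks and a ratio of 0.375 to 0.536. The low K562 density was thus not limited to the interval that holds the genes.

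Over the whole window the median ratio of local to genome-wide peak density was 0.149 in the 14 K562 lists, and it ran from 0.0174 to 0.536. The median over the 7 HCT116 lists was 0.488, with a range of 0.276 to 0.642, so that HCT116 too was below its own genome level here. Between lists of 1 antibody, pSIRT1 had 12 window peaks and a ratio of 0.0738 in unfractionated K562 cells, against 57 peaks and 0.276 in HCT116. The 5 pMCM2 lists of K562 fractions had 11 to 18 window peaks and ratios of 0.114 to 0.388, against 165 peaks and 0.642 in unsynchronised HCT116 cells. Among the K562 pSIRT1 fractions the ratio was lowest in middle S, at 0.0231 with 1 peak, and highest in early S, at 0.536 with 33 peaks. Early S and G2, the latter at 0.347 with 27 peaks, were above HCT116 pSIRT1. The fractions of G1, middle S and late S were below it. A median ratio of 0.5 or less was found in 31.9% of the 580 windows of 5 Mb on chromosomes 1 to 22 and X for the 14 K562 lists, and in 25.2% for the 7 HCT116 lists. For the 3 K562 nascent-strand lists alone it was found in 28.3%. A ratio as low as that of 9p21 occurred in 20 of the 580 windows for the 14 K562 lists and in 9 for the 3 nascent-strand lists. A ratio of 0.5 or less was thus common, and one as low as that of K562 at 9p21 was not.

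**Figure D2:**
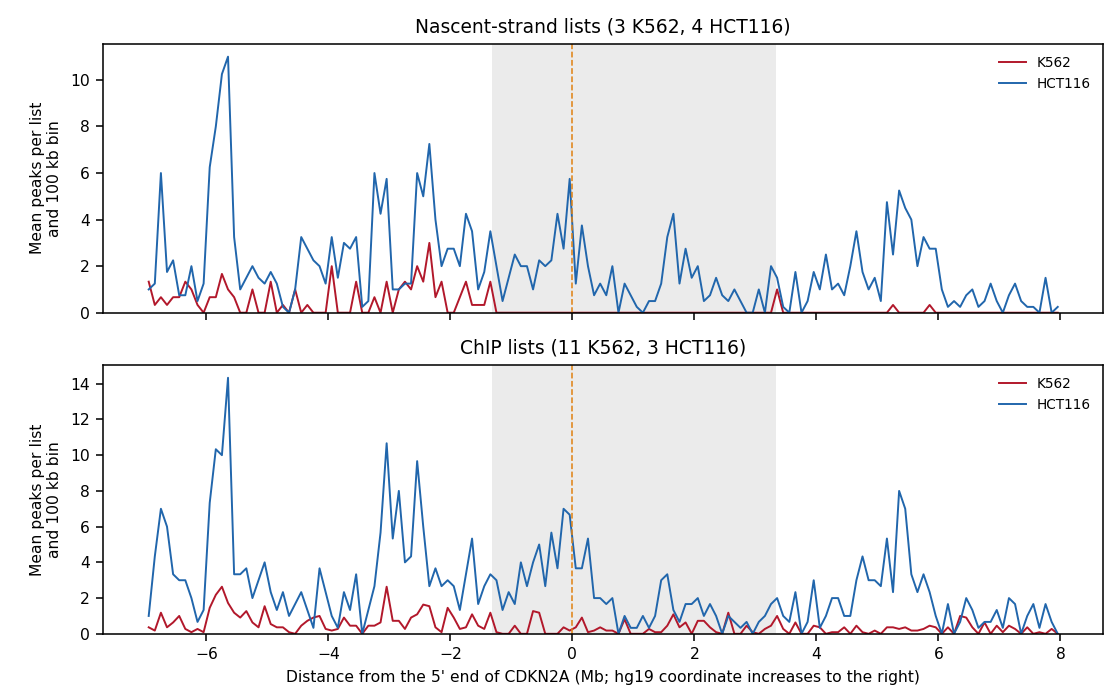
Mean number of peaks per list and bin of 100 kb (vertical axis) by distance from the 5′ end of CDKN2A in Mb (horizontal axis, dashed line at 0), in the nascent-strand lists (top) and the ChIP lists (bottom) of K562 and HCT116, with the gap shaded. The K562 nascent-strand line is at 0 through the gap and nearly at 0 for 5 Mb after it, where HCT116 nascent strands had 49 to 88 peaks a list.

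Across the genome, the K562 nascent-strand lists together left 38 stretches of 1 Mb or more without a peak. The 9p21 gap was the fifth longest, and the 4 longer ones held at most 4 peaks of any HCT116 nascent-strand list. Per Mb, the HCT116 nascent-strand lists averaged 15.5 peaks in the 9p21 gap, against 32.6 in the genome. As many per Mb, or more, were found in 3 of the 38 stretches, the 9p21 gap included. It was the 1 stretch of its length or longer with that many. Both limits are its own values, and the 4 longer stretches were nearly empty in HCT116 too, so this sets it apart little. The next longest of the 3 was 1.39 Mb.

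Over the gene span, 8 of 14 K562 lists had no peak, and the other 6 had 1 peak each. The 7 HCT116 lists had 8 to 21 peaks each, with a median of 10 and 79 in all. The K562 lists without a peak were the nascent strands of all 3 phases, pSIRT1 of unfractionated and middle S cells, and pMCM2 of G1, middle S and G2 cells. Windows as wide as the gene span that held a peak of some HCT116 list numbered 13783 in the genome, and an empty one was not rare in K562. The share without a K562 peak was 11.1% for early S, 14.1% for middle S and 8.95% for late S nascent strands, and 4.88% for all 3 together. For pSIRT1 it was 10.9% in unfractionated cells, 11.8% in G1 and 13.9% in G2, while within S it was 15.3% early, 54.4% middle and 7.43% late. For pMCM2 it was 34.6% in G1 and 7.57% in G2, while within S it was 21.1% early, 26.5% middle and 16.3% late. An empty span in the middle S pSIRT1 list says little beside such a share. The share for the 3 nascent-strand lists together cannot exceed that of any 1 of them. These windows needed a peak of only 1 HCT116 list, whereas the gene span had 8 to 21 peaks in each.

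MTAP, 63.3 kb long, had a peak in 4 of 14 K562 lists, against 7 of 7 HCT116 lists with 26 peaks in all. The 4 K562 peaks were all pSIRT1 and all began at the same base, 21802801, 166 bp inside the marked start of the gene. The peak held 71 reads over 1000 bp in G1, 220 reads over 400 bp in early S and 50 reads over 400 bp in late S, and in G2 it had a score of 907 over 400 bp. In early S that was 8.46 times the median peak of the list and in G2 14.01 times, while in late S it was 1.09 times. The interval chr9:21802801-21803200 was also covered in 5 of 7 HCT116 lists. HCT116 pMCM2 had a peak with exactly these bounds and 97 reads. In the other HCT116 lists it lay inside wider peaks, of 63 reads after aphidicolin, 138 reads in T530A rescued cells, 190 reads in wild-type rescued cells and a score of 58 in H4K16ac. These 4 wider peaks also covered the 5′ end of the gene, which none of the K562 peaks did. HCT116 pSIRT1, the list of the same antibody in the other line, had no peak there, and its nearest one lay 24.2 kb away.

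CDKN2A, 26.7 kb long, had a peak in 2 of 14 K562 lists, against 7 of 7 HCT116 lists with 16 peaks in all. Both K562 peaks were pMCM2, chr9:21971001-21971400 with 9 reads in early S and chr9:21971001-21971200 with 8 reads in late S. Their reads were 0.692 and 0.571 times the list median. The peaks were also narrower than the median widths of their lists, 800 and 1000 bp. In HCT116 the interval chr9:21969201-21970610 was covered in 6 of 7 lists, all but pMCM2. Those with the most reads were broad. They held 234 reads over chr9:21968201-21972800 after aphidicolin, 227 reads over chr9:21965201-21971800 in SIRT1-depleted cells and 297 reads over chr9:21963401-21972000 in T530A rescued cells. Wild-type rescued cells had 144 reads over chr9:21968201-21971600. HCT116 pSIRT1 had 42 reads there, and H4K16ac a score of 42. The single HCT116 pMCM2 peak in the gene, chr9:21979201-21979600, had 30 reads. No list of either line had a peak over the marked 5′ end of CDKN2A, and the nearest peak was 23.1 kb away in K562 and 0.111 kb away in HCT116. Only this end was marked in hg19, so peaks at the separate p14ARF and p16INK4a starts were not assessed.

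CDKN2B, 6.41 kb long, had no peak in any of the 14 K562 lists, against 1 peak in each of 5 of 7 HCT116 lists. The HCT116 peaks shared the interval chr9:22005116-22006199. They held 76 reads in SIRT1-depleted cells, 56 reads in T530A rescued cells, 34 reads in pSIRT1, 84 reads in pMCM2, with a score of 59 in H4K16ac. The nascent-strand lists of aphidicolin-treated and wild-type rescued HCT116 cells had none. The nearest peak to the 5′ end of CDKN2B was 37.9 kb away in K562 and 2.71 kb away in HCT116. Because the genes differ in length, their peak counts are not compared with one another. The share of windows as short as each gene that are empty in K562 was not counted over the genome. K562 lists held 8.25 to 40.7 peaks per Mb of the genome, so most stretches of 6.41 kb hold no peak of a given list. The empty CDKN2B in K562 therefore says little by itself.

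**Figure D3:**
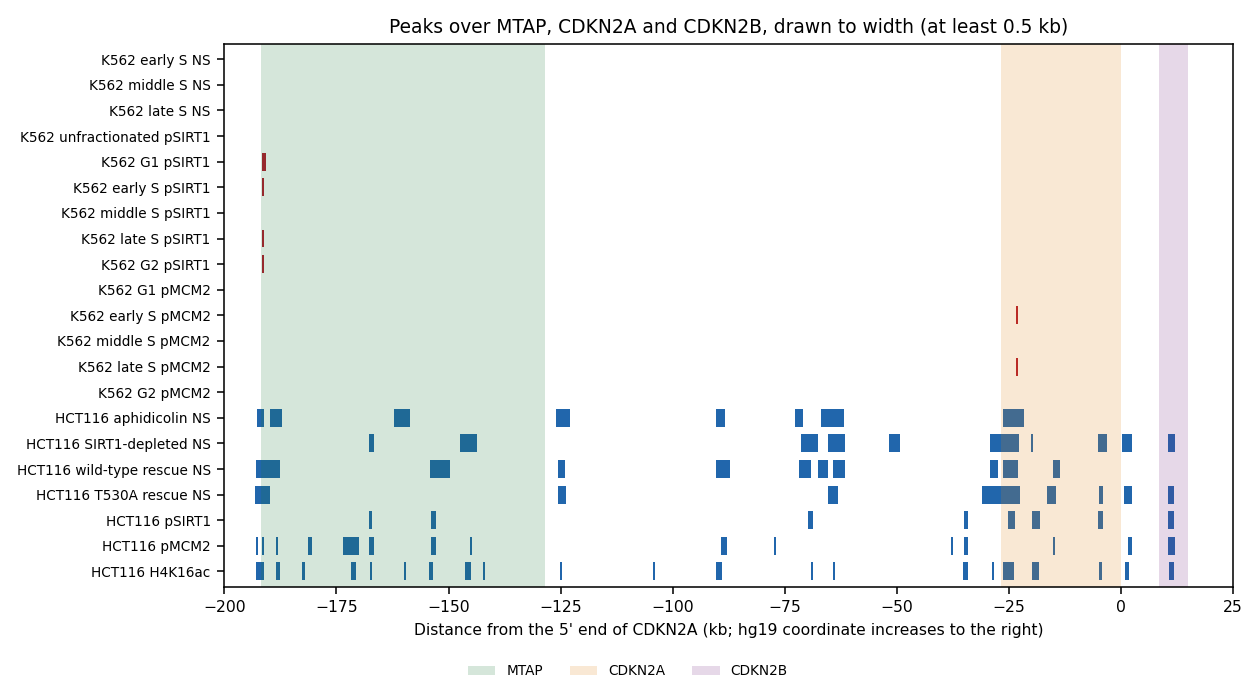
Peaks over MTAP, CDKN2A and CDKN2B in each list, K562 above HCT116, with distance from the 5′ end of CDKN2A in kb on the horizontal axis and bars drawn to the width of each peak, or at 0.5 kb for narrower ones. The 6 K562 peaks are 4 of pSIRT1 at the start of MTAP and 2 of pMCM2 in CDKN2A, while the 7 HCT116 lists have 8 to 21 peaks each.

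The strongest peak of the gene span, by reads or score not scaled for width, was not the same in every HCT116 list. It lay in CDKN2A in aphidicolin-treated, SIRT1-depleted and T530A rescued nascent strands and in pSIRT1. In wild-type rescued nascent strands it was the MTAP peak chr9:21801601-21807000 with 190 reads, and in pMCM2 the MTAP peak chr9:21826801-21827800 with 127 reads. For H4K16ac it lay between MTAP and CDKN2A, at chr9:21904215-21905396, with a score of 92.

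Unlike nascent strands, the K562 ChIP lists did have peaks in the interval that was empty of nascent strands. There were 154 of them, against 579 in the 7 HCT116 lists. For pSIRT1 they numbered 6 in unfractionated cells, 25 in G1 and 26 in G2, while the S fractions had 32 (early), 1 (middle) and 13 (late). For pMCM2 they numbered 12 in G1 and 7 in G2, while the S fractions had 11 (early), 9 (middle) and 12 (late). HCT116 had 46 pSIRT1, 146 pMCM2 and 101 H4K16ac peaks there. Relative to each list's genome-wide density, the K562 lists had 0.0250 to 0.563 in the interval, with the highest value in early S pSIRT1, and the HCT116 lists 0.241 to 0.615. The K562 lists inside the HCT116 range were pSIRT1 of early S and G2, at 0.563 and 0.362, and pMCM2 of G1, at 0.315. Both of these pSIRT1 lists were above HCT116 pSIRT1, which was at 0.241, and the other K562 pSIRT1 lists were below it. With the ChIP lists added, the longest stretch empty in all 14 K562 lists was 330 kb, chr9:22875601-23205600. A stretch as long occurred 33 times in the genome, and 9 of those held as many HCT116 peaks per Mb.

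The K562 peaks in the interval differed from other peaks of the same lists in width. A width of 400 bp or less was found for 138 of the 154, or 89.6%, against 16.9% of all peaks in those 11 lists. The lists differed widely, from 2.80% to 62.3% narrow peaks over the genome, and with each list weighted by its peaks in the interval the genome share was 28.2%. In the interval the share was 63.6% to 100% by list, above the list's own genome share in 11 of 11. For all 7 HCT116 lists, nascent strands included, the shares were 95 of 579, or 16.4%, in the interval and 12.9% in the genome. Weighted in the same way, the genome share was 12.1%. The interval share was above the list's own genome share in 3 of 7. It was 34.2% against 23.7% in pMCM2 and 37.6% against 27.3% in H4K16ac. In pSIRT1 it was 4.35% against 7.38%, and in the nascent-strand lists 0% to 2.90% against 0.216% to 2.85%. Counted separately, peaks up to 400 bp in K562 ChIP lists had a density of 0.301 to 1.96 times their genome-wide level in the interval, and 9 of the 11 lists were above 0.5. The lists above 1 were pSIRT1 of G1, at 1.90, and pMCM2 of G1 and middle S, at 1.96 and 1.51. Peaks wider than 400 bp were at 0 to 0.0895 of their level in the same lists, and 4 lists had none. In HCT116 wide peaks were at 0.240 to 0.533 and narrow peaks at 0 to 0.887 of their levels. Thus wide peaks were nearly missing from the interval in K562, and narrow ones were not. The interval was set by its lack of K562 nascent-strand peaks, of which 1.82% to 2.07% by list were narrow over the genome. How far this choice shapes the contrast of widths was not tested. None of the 154 overlapped a K562 nascent-strand peak, which follows from the way the interval was set, while 25.8% to 57.0% of all peaks in those lists did. Whether the narrow peaks come from DNA of this interval was not tested.

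**Figure D4:**
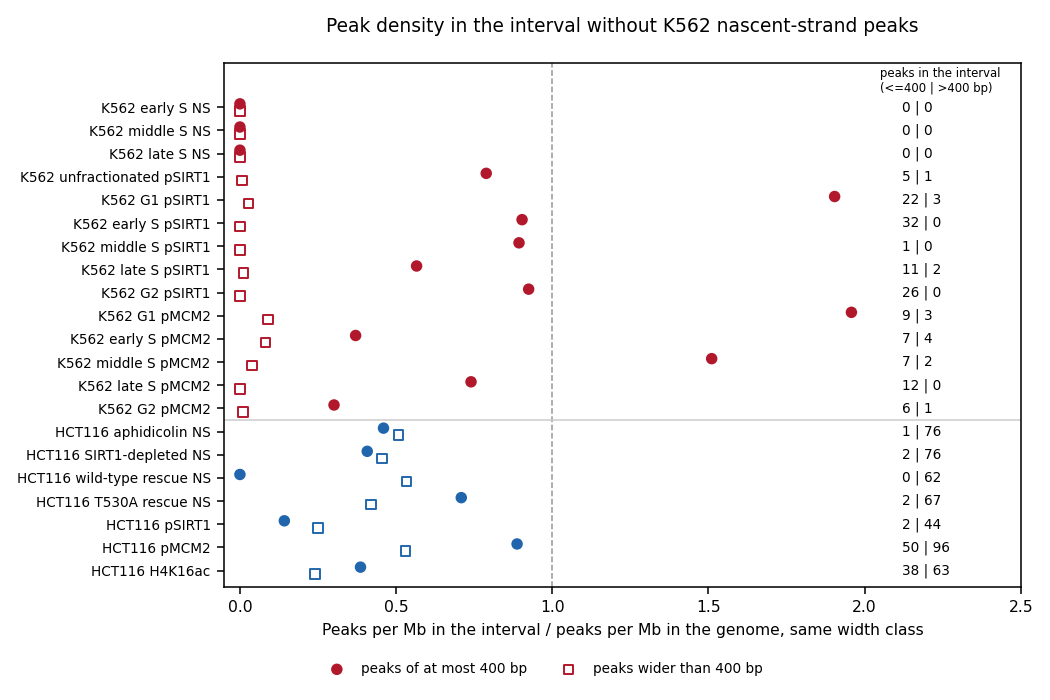
Density of narrow (400 bp or less) and wide peaks in the interval empty of K562 nascent strands, as a ratio to the same list's genome-wide density (horizontal axis), 1 row per list and K562 above HCT116. Wide peaks of the K562 ChIP lists sit between 0 and 0.0895, narrow ones between 0.301 and 1.96, and in HCT116 wide peaks sit between 0.240 and 0.533.

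Many of the K562 ChIP peaks shared their place with a peak of another K562 ChIP list, as peaks of these lists do over the genome. Merged across lists they formed 53 sites, 20 called in 1 list, 33 in 2 lists or more, 10 in 5 or more and 3 in 9 or more. Both antibodies called 11 of the sites, pSIRT1 alone 32 and pMCM2 alone 10. Sites were not counted in this way over the genome, and pSIRT1 had more K562 lists than pMCM2. These site counts, by list and by antibody, therefore cannot be read as a trait of the interval. By list, 33.3% to 100% of the peaks in the interval overlapped a peak of at least 1 other list, against 76.1% to 98.7% over the genome. For G1 pSIRT1 these shares were 88.0% and 87.2%, and for early S pSIRT1 81.2% and 93.7%. Overlap with 5 or more other lists was found for 18.8% of the early S pSIRT1 peaks, against 41.3% over the genome, and for 23.1% of the G2 pSIRT1 peaks, against 37.7%. The median width of the sites was 400 bp and 43 were no wider than that. An HCT116 peak overlapped 21 of the sites, or 39.6%, and 32 had none. The HCT116 lists together covered 12.3% of the interval. Of the early S pSIRT1 peaks in the interval 43.8% overlapped an HCT116 peak, against 78.6% over the genome. For G1 pSIRT1 the shares were 64.0% and 91.4%. The share in the interval was below the list's genome share in 10 of 11 lists, the exception being middle S pSIRT1 with its 1 peak. These shares were not matched for peak width or for the lower HCT116 peak density of the interval. Of the 32 pSIRT1 peaks of early S in the interval, 25 (78.1%) overlapped a G2 pSIRT1 peak, and this was 25 of 26 (96.2%) of the G2 peaks. Over the genome the same shares were 81.7% and 63.9%. Of the 25 pSIRT1 peaks of G1, 22 (88.0%) overlapped an early S peak, against 30.5% over the genome. By contrast 2 of these 25 (8.0%) overlapped a peak of unfractionated cells, against 50.1% over the genome. Overlap of pSIRT1 peaks with pMCM2 peaks of the same fraction was 24.0% in G1, against 16.9% over the genome. In early S it was 9.38%, against 22.1%. The shares between K562 lists were not matched for width either. The lists also differ in size, with 75682 pSIRT1 peaks in G1 and 36314 in early S.

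The 3 sites called most often were narrow and were present in HCT116 pMCM2 and H4K16ac as well. At chr9:22103001-22103400, beyond CDKN2B, K562 pSIRT1 had 112 reads in G1, 313 in early S and 177 in late S, with a score of 46.8 in middle S and 2000 in G2. K562 pMCM2 had 41 reads in G1 and 21 in G2, with 33 (early), 28 (middle) and 39 (late) in the S fractions. HCT116 had 310 pMCM2 reads and an H4K16ac score of 72 at the site, and no nascent-strand or pSIRT1 peak. Within their lists the K562 early S and G2 pSIRT1 peaks stood out, at 12.04 and 30.9 times the median peak, while the middle S one was at 0.860 times. At chr9:24513001-24513200, K562 pSIRT1 had 13 reads in unfractionated cells, 91 in G1, 359 in early S and 156 in late S, and a score of 1000 in G2. K562 pMCM2 had 20 reads in G1 and 33 in G2, with 14 (early), 18 (middle) and 21 (late) in the S fractions. HCT116 had 205 pMCM2 reads and an H4K16ac score of 55. The early S and G2 pSIRT1 peaks were again high in their lists, at 13.8 and 15.4 times the median peak. At chr9:21356401-21356800, 9 K562 lists had a peak, with 18 to 68 pSIRT1 reads in the 3 lists that give reads and 6 to 33 pMCM2 reads. HCT116 had 32 pMCM2 reads and an H4K16ac score of 35 at this site.

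**Figure D5:**
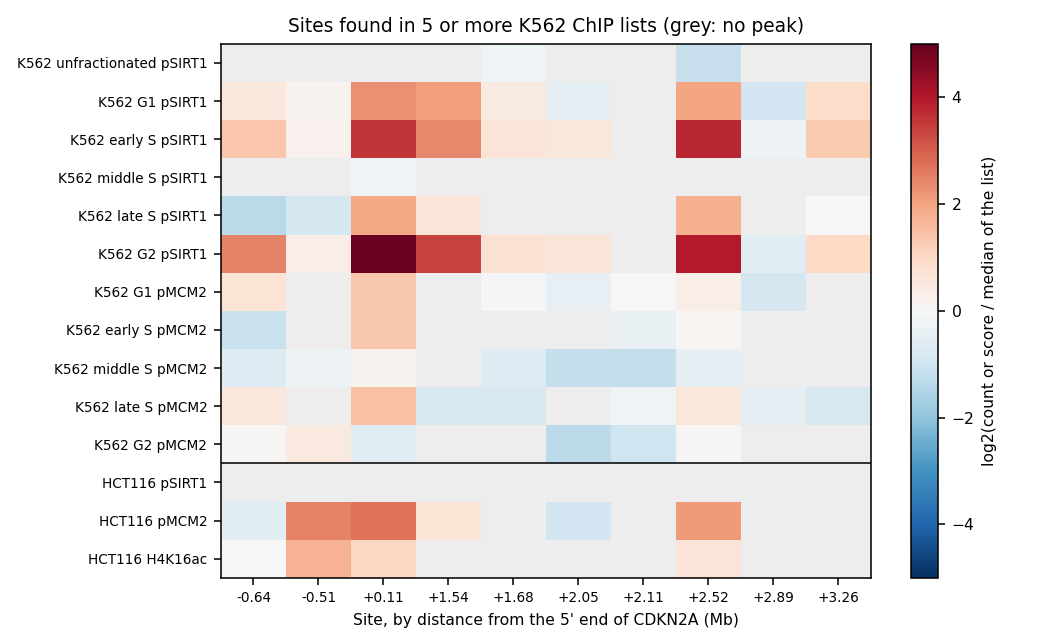
The 10 sites called in 5 or more K562 ChIP lists, by distance from the 5′ end of CDKN2A in Mb (horizontal axis), with a row for each ChIP list, K562 above HCT116. Colour gives the log2 of the peak's count or score over the median of its list, and grey means no peak. The K562 early S and G2 pSIRT1 rows are darkest at 2 of the 3 most frequent sites, where the HCT116 pMCM2 and H4K16ac rows are filled as well and the HCT116 pSIRT1 row is grey.

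A few K562 peaks in the interval were wider than 400 bp, 16 in all. At chr9:21488001-21490800, 4 K562 lists had such a peak, with 26 reads in G1 pSIRT1, 25 reads in late S pSIRT1, 21 reads in middle S pMCM2 and 45 reads in G2 pMCM2. The site was covered in 6 of 7 HCT116 lists, with 212 to 280 reads in the 4 nascent-strand lists, 260 reads in pMCM2 and a score of 118 in H4K16ac. Near chr9:23821001-23827000, 5 wide pMCM2 peaks of 11 to 19 reads were called in G1, early S and middle S. A late S pSIRT1 peak at chr9:22661001-22662400 with 29 reads lay where all 7 HCT116 lists had a peak, with 191 to 299 reads in the nascent-strand lists. Of the 16 wide K562 peaks, 11 were below the median value of their list and 12 overlapped a peak of some HCT116 list. Over the genome 88.1% to 95.8% of the peaks in the lists that hold them overlapped one.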

How the data were processed

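Nascent-strand DNA and ChIP DNA of 21 libraries were analysed from the authors' deposited peak lists, 1 list a library. Per the submitters' processing notes the reads were processed with MACS and SICER and build hg19. Tool versions and thresholds, not given in the sources used here, are unknown. In 18 deposited lists the value per peak is a whole number taken, from the values, as a read count that is not scaled for depth. In the deposited lists of K562 pSIRT1 in middle S and in G2 it is a decimal score, and in the deposited HCT116 H4K16ac list a MACS score. That deposited list also holds a fold enrichment (ratio) and −log10 p and q values, which were not used.

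The 1841 peaks outside chromosomes 1 to 22 and X were dropped. Overlaps needed 1 bp. Peak density was set against the 2951.27 Mb from the first to the last peak of each chromosome. Groups follow the labels. With 1 library per group there was no test, SD or p-value; differences in calling between lists are not separable from the samples. Sites are overlapping K562 ChIP peaks joined across lists. Named peaks are all K562 peaks in the gene span, the peaks beside the gap and the strongest span peak of each HCT116 list; recurring sites, wide peaks and HCT116 intervals were chosen after their values were seen. The region, genes and measures were chosen with earlier results of these data known. The alternatives were the peak filter, overlap, merging, scale and lists pooled. Python 3.11.15, numpy 2.4.6 and pandas 2.3.3 were used, and the gap search was tested on simulated data.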

Additional observations from a re-analysis of the deposited data

How the results depend on the processing

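No paired analysis was possible because every group has 1 library and no result comes from a test. A value counts as moved when it changed by over 1.5 times. The longest stretch empty in all 14 K562 lists, 330 kb, was 710 kb with the higher-scoring 50% of peaks in each list, 4619 kb with nascent-strand lists only and 1351 kb with peaks wider than 400 bp; leaving out each K562 list in turn gave 330 to 401 kb, and 17 of 20 alternatives did not move it. The number of K562 lists with no peak in the gene span, 8, was 13 with peaks wider than 400 bp and moved in none of the other 3 alternatives. The K562 median of window to genome density, 0.149, was 0.0587 by covered length, 0.0815 with the higher-scoring 50% of peaks, 0.0242 with nascent-strand lists only and 0.0476 with peaks wider than 400 bp, and the other 5 alternatives did not move it. The HCT116 median, 0.488, was 0.320 by covered length, 0.279 with the higher-scoring 50% of peaks and 0.310 with ChIP lists only, and the other 6 did not move it. The K562 median was the lower one in each of these. The settings by assay and by width were chosen after seeing the data, and for the moved values the cause was not tested. Depth limits what can be said of empty lists: with no read totals, a site absent from a list was not called at an unknown depth.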

Other observations

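The 9p21 gap was not the only long stretch without K562 nascent strands in which HCT116 had such peaks. Of the 38 stretches of 1 Mb or more, 10, the 9p21 gap included, held at least 5 HCT116 nascent-strand peaks per Mb. On chromosome 9 these included chr9:25310001-27260000, of 1.95 Mb with 14.4 HCT116 peaks per Mb, and chr9:27809001-31815800, of 4.01 Mb with 8.30 per Mb, both after the 9p21 gap. The first is parted from the 9p21 gap only by the narrow peak at its right edge, and without that peak it continues the gap. On chromosome 22 they included chr22:18935001-20327600, of 1.39 Mb with 49.5 HCT116 peaks per Mb, and chr22:22503601-23698800, of 1.20 Mb with 55.8 per Mb, both above the HCT116 genome mean of 32.6 per Mb. Whether the K562 DNA of these stretches differs in copy number was not tested.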
